A study of Rattus norvegicus with 8 samples.

Results

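The genes described here are the potassium, TRP and Piezo channels: every gene whose symbol begins with Kcn, with Piezo, or with Trpc, Trpm or Trpv and a number. The rule used symbols alone and no measured value. It found 109 genes with a probe, of 26904 genes in all on the array, of which 15159 carried a symbol. The rest were accessions without a matched symbol, each counted as a gene of its own, so a gene may be counted more than once. The reference names 122 such genes; Kcnu1, Kcnk7, Kcnd2l1, Kcnq5, Trpm6, Trpm7, Trpc2 and Piezo2 were among those without a matched probe. One of the 109, Trpc4ap, encodes an adaptor protein and not a channel.

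The samples were lung endothelial cells of Sprague-Dawley rats aged 8 to 10 weeks. In the first group, 4 rats had received 60 mg/kg of monocrotaline under the skin, a plant alkaloid that injures lung endothelium and leads to pulmonary hypertension over the following weeks. In the second, 4 rats had received saline. The lungs were taken after 5 days in both groups and digested with collagenase, and cells were caught on magnetic beads coated with antibody to CD31, an endothelial surface protein, without culture. From each rat, 10 ng of RNA was labelled with Cy3 and read on its own 1-colour Agilent array. The question was which endothelial genes are altered early in this model of pulmonary arterial hypertension.

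Potassium channels let potassium leave the cell and so hold the membrane potential negative, which in endothelium favours calcium entry and in smooth muscle opposes it. TRP channels of the C, M and V families pass cations, many of them calcium, on signals from receptors, lipids, heat or stretch, and Piezo1 opens when the membrane is stretched or sheared by flow. Kcnk3 encodes TASK-1, a leak channel whose loss-of-function variants cause heritable pulmonary arterial hypertension in humans, and Kcna5 encodes Kv1.5, a voltage-gated channel studied in pulmonary artery smooth muscle.

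A probe counted as detected on an array when the scanner software flagged it well above background, and values are scaled log2 signals, on which 0 is the 75th percentile of the array's own signals. The share of spots above background was 74.9% to 77.7% on monocrotaline arrays, against 70.8% to 76.4% on saline arrays. All 8 arrays lay on 1 slide, with the monocrotaline arrays in row 2 and the saline arrays in row 1, so slide row and treatment cannot be told apart. The number of arrays, 4 a group, limits the precision of every comparison. Since these are bulk samples, fewer cells of a type and less RNA per cell cannot be told apart. Of 20 endothelial markers 17 were tested, and all 17 were well above background on all 8 arrays, Pecam1 and Cdh5 among them. All 17 had a negative log2 fold change (median -0.50), and 0 were called by limma. The mean signal of these 17, relative to the saline mean, was -0.35, -0.07, -0.75 and -0.79 on the monocrotaline arrays, against -0.12, -0.23, -0.01 and 0.36 on the saline arrays. A second endothelial list, of capillary and aerocyte markers, had 9 of 10 tested, with 3 positive and 6 negative estimates (median -0.18) and 0 called. The mean signal of that second list was -0.71 to 0.23 on the monocrotaline arrays, against -0.53 to 0.40 on the saline arrays. The T and NK cell markers, 19 of 19 tested, gave 1.33, 0.97, 1.95 and 1.48 on the monocrotaline arrays, against 0.42, 0.15, 0.25 and -0.82 on the saline arrays. Airway markers, 9 of 13 tested, gave 3.01, 0.56, 3.18 and 0.83 on the monocrotaline arrays, against 0.71, -1.02, 0.24 and 0.07 on the saline arrays. Neuroendocrine and neuronal markers, 5 of 10 tested and with Chga, Chgb, Syp, Calca and Snap25 not tested, gave 0.52 to 1.10 on the monocrotaline arrays, against -0.29 to 0.19 on the saline arrays. Limma called 3 of the T and NK cell markers, 1 of the airway markers and 2 of the neuroendocrine and neuronal markers (Uchl1 and Resp18), all higher after monocrotaline. The part of these other cells in the channel values was not tested.

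Of the 109 genes, 47 were detected on all 8 arrays, 16 on 4 to 7, 16 on 1 to 3 and 30 on 0. The 63 detected on at least 4 arrays were tested, 57.8% of the 109, against 75.5% of all genes with a symbol. Detection on all 8 arrays was reached by 43.1% of the channel genes and by 69% of all genes with a symbol. The 38 pore subunits of voltage-gated potassium channels made up the largest family, with 22 tested and 12 detected on 0 arrays. Of 13 auxiliary subunits and regulators of those channels 6 were tested, of 13 two-pore-domain leak channels 8, of 15 inward rectifiers 7 and of 11 calcium- or sodium-activated channel genes 8. Among TRP channels, 3 of 5 TRPC, 3 of 6 TRPM and 4 of 6 TRPV genes were tested, and Piezo1 was detected on all 8 arrays.

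**Figure D1:**
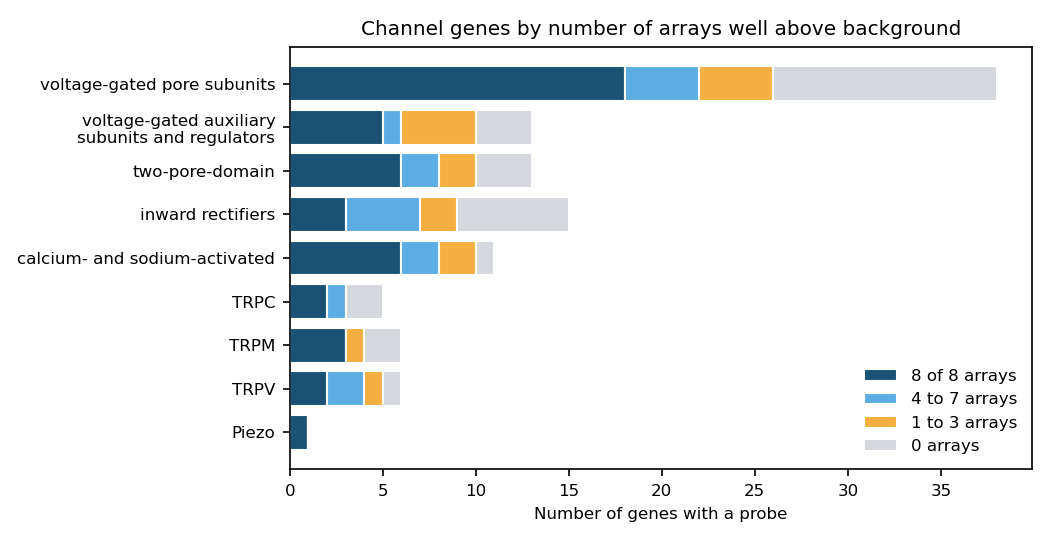
Channel families, with the number of genes on the horizontal axis split by the number of arrays on which the probe was well above background. The voltage-gated pore subunits hold 18 genes detected on all 8 arrays and 12 detected on 0; the inward rectifiers hold 3 and 6.

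The genes detected on 0 arrays included Kcna4, Kcnc1 and Kcnd2 among voltage-gated channels, all known from neurons, Kcnj4, Kcnj6, Kcnj10, Kcnj13, Kcnj15 and Kcnj16 among inward rectifiers, Kcnk9 and Kcnk18 among leak channels, Kcnn2, and Trpc5, Trpc7, Trpm3, Trpm8 and Trpv6. Kcnn1, which encodes the small-conductance channel SK1, was detected on 1 monocrotaline and 0 saline arrays. A probe under this limit has only a bound, and its gene may still be expressed.

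More arrays detected the gene in the monocrotaline than in the saline group for 23 of the 109 genes (21.1%), and fewer for 5 (4.59%). Among all genes with a symbol, these shares were 9.45% and 2.49% (1433 and 377 genes). Genes detected on all 8 or on 0 arrays cannot differ in this count. They were 43.1% and 27.5% of the channel genes, against 69% and 17.6% of all genes with a symbol. A larger part of the channel genes could therefore differ. The larger shares, in both directions, are not read as a trait of these genes. Per array, 63, 62, 67 and 67 channel genes were detected after monocrotaline, against 57, 48, 67 and 60 after saline. The lowest count was that of saline replicate 2, which also had the smallest share of spots above background, and the saline replicate 3 count equalled the highest monocrotaline counts. Kcnb2, Kcnc2, Kcnip3, Trpc4 and Trpv1 were detected on 3 monocrotaline arrays and 1 saline array each. Their log2 fold changes were 0.93 ± 0.56, -0.25 ± 0.47, 0.45 ± 0.77, 0.12 ± 0.43 and 0.09 ± 0.33 (SE), with limma adjusted p between 0.486 and 0.932. On arrays where such a probe is not above background its signal is only a bound. The estimate for Kcnb2 was 0.03 after normexp correction with 75th percentile scaling, and dropping monocrotaline replicate 1 gave 0.53 while dropping replicate 3 of that group gave 1.42.

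A feature of the gene that can be set beside detection is the CpG content of its promoter, since broadly expressed genes tend to have CpG-dense promoters and tissue-restricted genes CpG-poor ones. RefSeq promoter windows of GRCr8, from 250 bases before to 50 after the start, were matched for 78 of the 109 genes. Shown are Kcna5 and, chosen after their values were seen, 3 genes at the ends of the CpG and detection ranges. Kcnmb4 at chr7:54005052-54005351 (minus strand) holds 48 CpG and was detected on 8 arrays, and Kcna5 at chr4:161043760-161044059 (minus strand) holds 6 and was also detected on 8. Kcng3 at chr6:16803592-16803891 (plus strand) holds 46 CpG and was detected on 0 arrays, as was Kcna4 at chr3:114215086-114215385 (plus strand), which holds 1. They read 5′ to 3′ on the gene's strand, with each CG in capitals:
Kcnmb4: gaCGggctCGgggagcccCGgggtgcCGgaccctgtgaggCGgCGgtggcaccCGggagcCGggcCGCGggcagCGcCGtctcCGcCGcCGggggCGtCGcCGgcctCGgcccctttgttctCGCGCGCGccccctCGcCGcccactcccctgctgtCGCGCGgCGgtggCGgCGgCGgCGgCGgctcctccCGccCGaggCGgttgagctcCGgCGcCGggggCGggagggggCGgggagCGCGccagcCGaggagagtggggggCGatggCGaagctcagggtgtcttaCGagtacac
Kcna5: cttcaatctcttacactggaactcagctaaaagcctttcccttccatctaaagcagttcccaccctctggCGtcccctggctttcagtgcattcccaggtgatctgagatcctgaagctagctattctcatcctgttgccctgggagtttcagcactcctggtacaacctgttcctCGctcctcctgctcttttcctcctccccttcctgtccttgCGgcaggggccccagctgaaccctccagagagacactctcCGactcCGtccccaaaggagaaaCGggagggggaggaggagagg
Kcng3: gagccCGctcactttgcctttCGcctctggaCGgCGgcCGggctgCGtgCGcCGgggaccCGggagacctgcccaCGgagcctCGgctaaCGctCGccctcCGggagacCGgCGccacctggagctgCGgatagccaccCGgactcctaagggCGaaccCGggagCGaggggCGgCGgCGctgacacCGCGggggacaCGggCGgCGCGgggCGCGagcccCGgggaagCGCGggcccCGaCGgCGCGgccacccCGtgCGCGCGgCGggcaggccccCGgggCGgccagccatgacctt
Kcna4: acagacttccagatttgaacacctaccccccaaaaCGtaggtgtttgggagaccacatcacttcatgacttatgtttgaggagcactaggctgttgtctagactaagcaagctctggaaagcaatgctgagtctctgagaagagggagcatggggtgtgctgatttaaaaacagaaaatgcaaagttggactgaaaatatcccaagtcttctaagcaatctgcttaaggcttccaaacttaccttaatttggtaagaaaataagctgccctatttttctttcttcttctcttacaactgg

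CpG-dense promoters, with 15 or more CG in the 300 bases, were held by 18 of 32 channel genes detected on all 8 arrays (56.2%) and 11 of 24 detected on 0 arrays (45.8%). Among all genes with a symbol, the shares were 67% and 14.1%. Channel genes detected on 4 to 7 arrays gave 33.3% and those on 1 to 3 arrays 30%, from 12 and 10 genes. The difference between the ends was therefore 56.2% against 45.8% in the channels, where Kcng3 is an undetected gene with a dense promoter and Kcna5 a detected gene with a sparse one. No test was run on these shares.

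**Figure D2:**
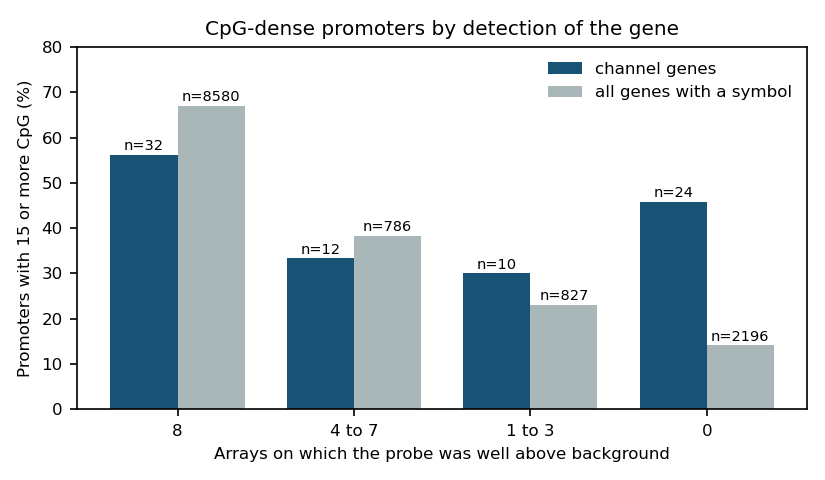
Share of promoters with 15 or more CpG (vertical axis, %) by the number of arrays on which the gene was detected, for channel genes beside all genes with a symbol, with the number of genes above each bar. At 0 arrays the channel genes stand at 45.8% and all genes at 14.1%.

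Across the 19137 genes tested, limma called 274 (1.43%) at an adjusted p under 0.05, of which 262 were higher (1.37%) and 12 lower (0.0627%) after monocrotaline. None of the 63 channel genes was called, 0 higher and 0 lower, and the lowest adjusted p was 0.105, for Kcnh6. At an unadjusted p under 0.05, 3 channel genes were higher (4.76%, against 6.72% of all genes tested) and 9 were lower (14.3%, against 7.23%). The groups did not overlap for 3 channel genes that were lower (4.76%, against 3.99%) and for 0 that were higher (against 4.56%). The median log2 fold change of the channel genes was 0.11, beside -0.03 over all genes tested, and 39 lay above 0 and 24 below (38.1%, against 53.9% of all genes tested). That split depended on scaling, background correction and single arrays. It was 26 above and 37 below after normexp correction with 75th percentile scaling, and between 33 above and 30 below and 35 above and 28 below under the other scalings. Without saline replicate 2 it was 32 above and 31 below, and without monocrotaline replicate 2 it was 38 above and 25 below.

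Channel genes were measured less precisely than genes at large: their median standard error was 0.36 log2 units, against 0.20. The 95% interval of the fold change lay within 1 log2 unit either way for 21 of the 63 (33.3%). For the other genes the interval reached past a 2-fold difference, so an adjusted p above the threshold does not show that they were alike in both groups. In 18 of 63 channel genes (28.6%) saline replicate 2 was the lowest and replicate 3 the highest of the saline arrays, against 11.8% of all genes tested.

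**Figure D3:**
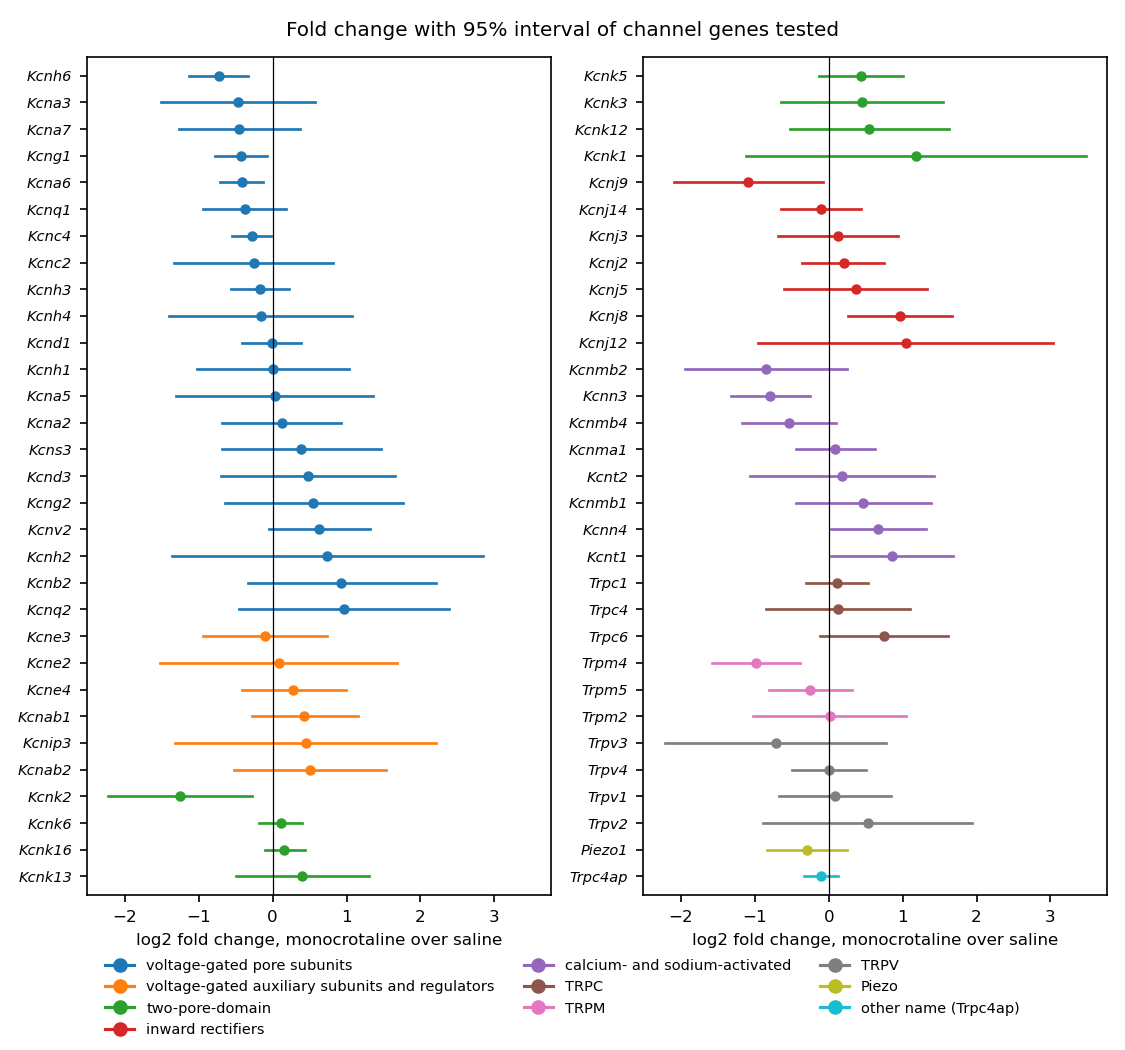
Log2 fold change of 62 of the 63 tested genes, monocrotaline over saline (horizontal axis), with 95% intervals, grouped and coloured by family. Estimates run from -1.25 (Kcnk2) to 1.18 (Kcnk1), and the intervals of 11 of those drawn lie wholly on one side of 0.

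Kcnk3, the gene of the leak channel TASK-1, was detected on all 8 arrays. Its scaled log2 signal was -1.72, -1.99, -2.99 and -2.41 after monocrotaline, against -2.77, -3.53, -1.36 and -3.24 after saline. The groups overlapped, since saline replicate 3 was the highest and saline replicate 2 the lowest of the 8. The means were -2.28 ± 0.55 and -2.72 ± 0.96 (SD, n = 4 each), a log2 fold change of 0.45 ± 0.48 (SE; 95% interval -0.65 to 1.55; limma adjusted p = 0.724). That interval takes in both lower and higher levels after monocrotaline. Leaving out saline replicate 3 gave 0.90 (limma adjusted p = 0.332) and leaving out saline replicate 2 gave 0.18. It was 0.26 without monocrotaline replicate 1, 0.69 without monocrotaline replicate 3 and 0.28 without saline replicate 4.

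Smooth muscle and pericyte markers, 13 of 14 tested with 10 on all 8 arrays, were set beside Kcnk3 array by array. Their mean signal relative to saline was 0.61, 1.13, -0.34 and 0.18 on the monocrotaline arrays, against 0.21, -1.19, 1.09 and -0.11 on the saline arrays. Over the 8 arrays Pearson's r with Kcnk3 was 0.90 (exact permutation p = 0.00191, adjusted p = 0.0649 over 34 relations) and Spearman's rho was 0.88 (exact permutation p = 0.00724, adjusted p = 0.223). Neither passed the adjustment. Without the 2 arrays farthest from the median marker score, monocrotaline replicate 2 and saline replicate 2, r was 0.94. With alveolar type 1 markers r was 0.79, with fibroblast and mesothelial markers 0.68 and with alveolar type 2 markers 0.66. With neuroendocrine and neuronal markers it was 0.62, with platelet markers 0.61 and with capillary and aerocyte endothelial markers 0.61. It was -0.01 with the endothelial list and lowest, at -0.50, with B and plasma cell markers (exact permutation, adjusted p from 0.38 to 0.987 for all of these). Without the 2 arrays farthest from each list's own median score, r was 0.55 with alveolar type 1 and 0.86 with fibroblast and mesothelial markers. In the same way it was 0.09 with alveolar type 2, 0.24 with neuroendocrine and neuronal and 0.63 with platelet markers. It was 0.34 with capillary and aerocyte, -0.27 with endothelial and -0.73 with B and plasma cell markers. With alveolar macrophage markers r went from -0.02 to 0.85. Differences between these correlations were not tested. Each group holds 4 arrays, too few for a value within a group, and the part of smooth muscle in the Kcnk3 signal was not tested.

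**Figure D4:**
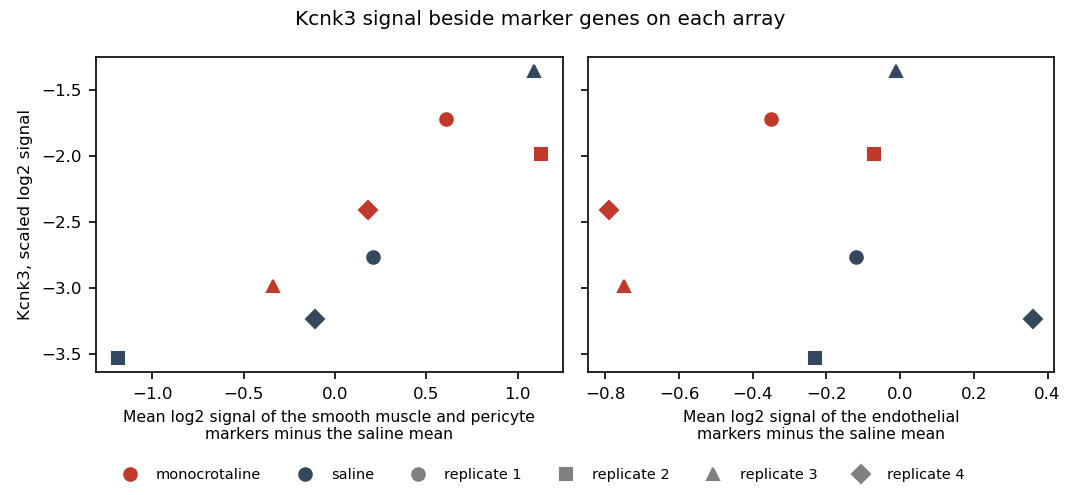
Scaled log2 signal of Kcnk3 (vertical axis) on each of the 8 arrays against the mean log2 signal of smooth muscle and pericyte markers (left) and of endothelial markers (right), both relative to the saline mean. Pearson's r is 0.90 on the left (adjusted p = 0.0649 by exact permutation) and -0.01 on the right. Over the other lists it ran from -0.50 (B and plasma cell) to 0.79 (alveolar type 1), with capillary and aerocyte endothelial markers at 0.61. The difference between the panels was not tested.

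Kcna5, the gene of Kv1.5, had -4.53, -4.19, -4.21 and -6.46 after monocrotaline, against -4.28, -5.39, -5.75 and -4.08 after saline. Monocrotaline replicate 4 was the lowest of the 8 arrays and the rest of that group lay inside the saline range. The log2 fold change was 0.03 ± 0.59 (SE; interval -1.31 to 1.36; limma adjusted p = 0.991), and its sign turned under other scalings, where it was as low as -0.14 after normexp correction. With the smooth muscle markers its r over the 8 arrays was 0.03.

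Among the other two-pore-domain genes, Kcnk2 had the largest difference. It encodes TREK-1, a leak channel opened by stretch and by fatty acids. Its signal was -1.07, 0.88, -0.21 and -0.26 after monocrotaline, against 0.71, 0.51, 1.40 and 1.71 after saline. Monocrotaline replicate 2 lay among the saline arrays and the other 3 lay below all of them. Its log2 fold change was -1.25 ± 0.43 (SE; interval -2.23 to -0.28), with an unadjusted p of 0.018 and a limma adjusted p of 0.255. The gene's other 2 tested probes gave -1.13 and -1.05. Kcnk5 (TASK-2, an alkaline-sensitive leak channel) and Kcnk6 (TWIK-2) had log2 fold changes of 0.44 ± 0.25 and 0.11 ± 0.13, and the interval for Kcnk6, -0.19 to 0.40, was among the narrow ones. A positive estimate was found for 7 of the 8 two-pore-domain genes tested, among them Kcnk1 at 1.18 ± 1.01, whose saline values spread from -7.83 to -2.57.

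**Figure D5:**
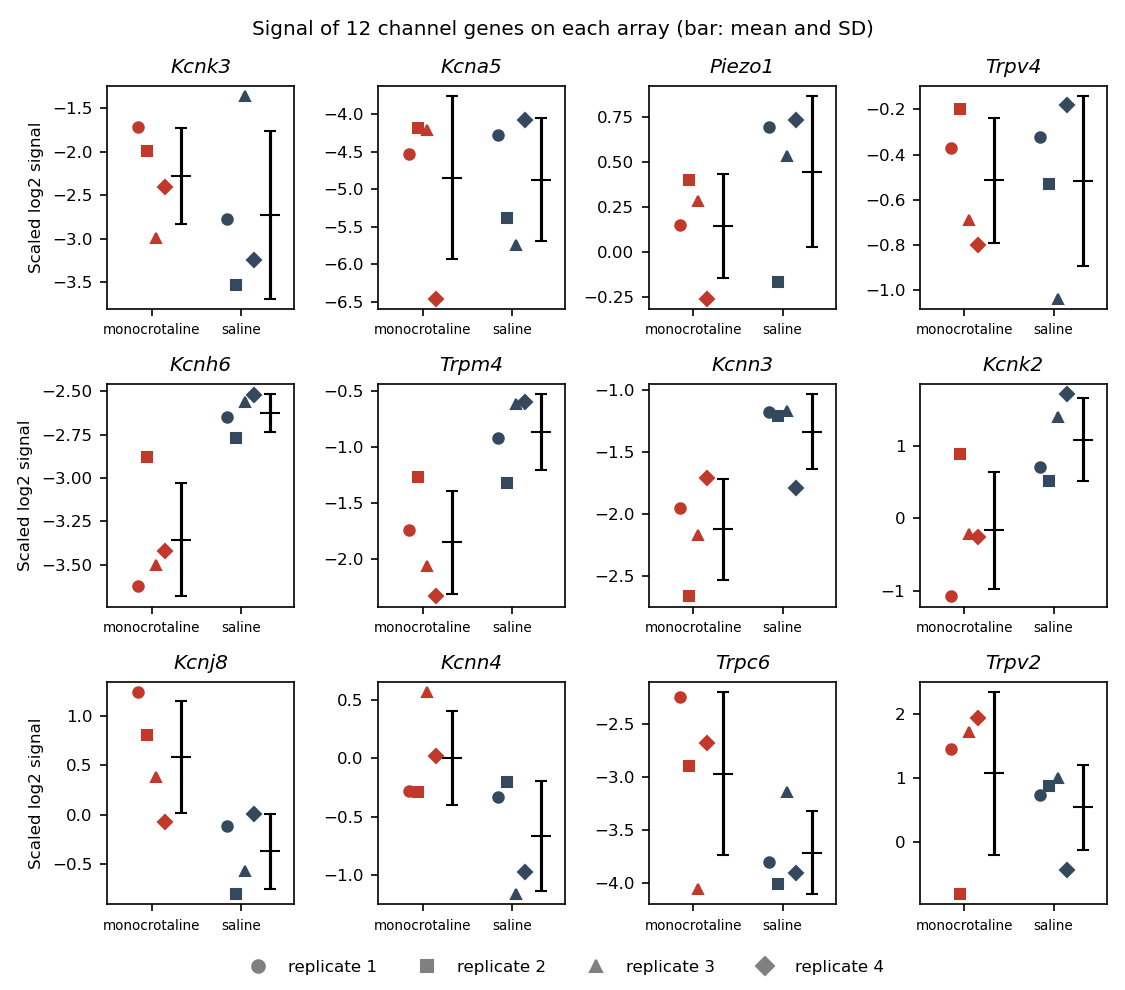
Scaled log2 signal (vertical axis, own scale in each panel) of 12 channel genes on each array, monocrotaline left and saline right, with symbols for replicates and a bar for mean and SD. The groups are apart only in Kcnh6; in Kcnk3 and Kcna5 they overlap over most of their range.

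The voltage-gated pore subunits gave 10 positive and 12 negative estimates, and 5 with an unadjusted p under 0.05, all lower after monocrotaline. Kcnh6, the gene of the ERG2 channel, had -3.62, -2.88, -3.50 and -3.42 after monocrotaline, against -2.65, -2.77, -2.56 and -2.52 after saline. The groups did not overlap, with monocrotaline replicate 2 the nearest to the saline arrays. The log2 fold change was -0.73 ± 0.17 (SE; interval -1.13 to -0.33; limma adjusted p = 0.105). Without monocrotaline replicate 2 it was -0.89 and passed the threshold, with a limma adjusted p of 0.0257. In that fit 93 of all genes tested were called lower, against 12 with every array kept. Leaving out any other single array gave Kcnh6 values of -0.78 to -0.64, with limma adjusted p from 0.138 to 0.259. Kcna6 (Kv1.6) had -4.63, -4.66, -4.78 and -4.57 after monocrotaline, against -4.22, -4.07, -4.48 and -4.20 after saline. Its groups also did not overlap, at a log2 fold change of -0.42 ± 0.13 and a limma adjusted p of 0.196, but its second probe gave 0.21, the opposite sign. Kcnc4 (Kv3.4), the remaining gene without overlap and picked out after its values were seen, had -0.28 ± 0.11 (limma adjusted p = 0.326).

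Kcnq1 (Kv7.1) had -0.38 ± 0.24 and its second probe -0.49. Kcna2 (Kv1.2), detected on 3 monocrotaline and 2 saline arrays, had 0.12 ± 0.35. Kcnv2, an electrically silent subunit that joins Kv2 channels, had -3.19, -3.03, -2.52 and -3.02 after monocrotaline, against -3.44, -2.95, -3.50 and -4.40 after saline, and saline replicate 2 lay inside the monocrotaline range. Its log2 fold change was 0.63 ± 0.30 (limma adjusted p = 0.39), and 0.36 without saline replicate 4. Of the 6 auxiliary genes tested, 5 had a positive estimate; Kcnab2, a beta subunit of Kv1 channels, had 0.50 ± 0.45 and Kcne3, which binds Kcnq1 channels, had -0.11 ± 0.37.

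Among calcium-activated channels, the genes of the pair that carry endothelium-dependent hyperpolarization in arteries had estimates of opposite sign. Kcnn3, the gene of the small-conductance channel SK3, had -1.95, -2.66, -2.17 and -1.71 after monocrotaline, against -1.18, -1.21, -1.17 and -1.79 after saline. Saline replicates 1, 2 and 3 lay close together above all 4 monocrotaline arrays, and saline replicate 4 lay among the monocrotaline values. For Kcnn3 the log2 fold change was -0.79 ± 0.23 (SE; interval -1.32 to -0.25; limma adjusted p = 0.19). Kcnn4, the gene of the intermediate-conductance channel, which T cells also use, had -0.28, -0.29, 0.57 and 0.02 after monocrotaline, against -0.33, -0.20, -1.16 and -0.97 after saline. The groups overlapped at their edges, and the log2 fold change was 0.67 ± 0.28 (SE; interval 0.03 to 1.31; limma adjusted p = 0.337). All 19 T and NK cell markers had positive estimates (median 1.51), and all 17 endothelial ones negative; their part in Kcnn4 and Kcnn3 was not tested. The difference between the 2 genes' fold changes was not tested.

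Kcnt1, a sodium-activated channel gene, had -4.88, -5.12, -5.84 and -5.67 after monocrotaline, against -6.63, -6.99, -5.62 and -5.70 after saline, and was above background on 4 and 2 arrays of these groups. Saline replicates 3 and 4 lay inside the monocrotaline range, and the log2 fold change was 0.86 ± 0.36 (limma adjusted p = 0.339). After normexp background correction it was 0.07 with 75th percentile scaling and 0.26 with quantile scaling. Kcnma1, the pore of the large-conductance BK channel, had 0.09 ± 0.23 (interval -0.44 to 0.63). Kcnmb4, a beta subunit of BK, had -1.70, -1.12, -1.42 and -1.63 after monocrotaline, against -1.43, -1.07, -1.10 and -0.14 after saline, for -0.54 ± 0.28 (limma adjusted p = 0.421), and -0.27 without saline replicate 4. Saline replicates 1, 2 and 3 lay within or just above the monocrotaline range, and saline replicate 4 stood above it.

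Of the 7 inward rectifiers tested, 5 had a positive estimate. Kcnj9 (GIRK3), picked out after its values were seen, had -1.09 ± 0.44 (limma adjusted p = 0.328). Its probe was above background on 3 monocrotaline and 3 saline arrays, so part of its values are only bounds. The second probe of Kcnj9 gave -0.76 ± 0.52. Kcnj8, the gene of Kir6.1, the pore of the vascular ATP-sensitive channel and abundant in pericytes, had 1.25, 0.81, 0.38 and -0.08 after monocrotaline, against -0.12, -0.81, -0.57 and 0.01 after saline. The groups overlapped only through monocrotaline replicate 4, which lay within the saline range. For Kcnj8 the log2 fold change was 0.97 ± 0.31 (SE; interval 0.26 to 1.67; limma adjusted p = 0.22). Abcc9, the sulfonylurea receptor subunit that pairs with Kir6.1, had -1.01, -1.07, -1.63 and -1.72 after monocrotaline, against -1.94, -3.25, -1.05 and -2.18 after saline, for 0.75 ± 0.43 (limma adjusted p = 0.465). In Abcc9, saline replicate 3 lay among the monocrotaline arrays and the other saline arrays below them. The smooth muscle and pericyte markers had a median log2 fold change of 0.44 with 11 of 13 positive. Those with a negative estimate were Rgs5 (-0.36), a pericyte marker, and Mcam (-0.28). The part of smooth muscle cells and pericytes in Kcnj8 was not tested. Kcnj2, the gene of Kir2.1, a flow-sensitive endothelial channel, was detected on 4 monocrotaline and 2 saline arrays and had 0.20 ± 0.24 (interval -0.36 to 0.75).

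Among TRP channels the lowest unadjusted p was that of Trpm4, a calcium-activated channel for monovalent cations. It had -1.74, -1.27, -2.06 and -2.33 after monocrotaline, against -0.92, -1.32, -0.62 and -0.60 after saline. Monocrotaline replicate 2 was just above saline replicate 2, and the other monocrotaline arrays were below all saline arrays. For Trpm4 the log2 fold change was -0.98 ± 0.26 (SE; interval -1.58 to -0.39; limma adjusted p = 0.143), and the second probe gave -1.12. Trpm2, gated by ADP-ribose under oxidant stress, had 0.01 ± 0.45 (interval -1.03 to 1.05), and the sign turned under other scalings.

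Trpc6, opened by diacylglycerol, had -2.24, -2.89, -4.05 and -2.68 after monocrotaline, against -3.80, -4.01, -3.14 and -3.90 after saline. Monocrotaline replicate 3 was the lowest of the 8, so the groups overlapped, and the log2 fold change was 0.75 ± 0.38 (SE; interval -0.12 to 1.62; limma adjusted p = 0.417). Trpc1 had 0.11 ± 0.18 (interval -0.31 to 0.53). Trpv4, a channel for calcium entry in lung endothelium, had -0.37, -0.20, -0.69 and -0.80 after monocrotaline, against -0.32, -0.53, -1.04 and -0.18 after saline. The values interleaved, and the difference was 0 ± 0.22 log2 units (SE; interval -0.50 to 0.51; limma adjusted p = 0.998). Trpv2, common in macrophages, had 1.46, -0.82, 1.72 and 1.94 after monocrotaline, against 0.74, 0.88, 1.00 and -0.44 after saline, for 0.53 ± 0.62 (limma adjusted p = 0.75). Without monocrotaline replicate 2 it was 1.16 (limma adjusted p = 0.173); it was 0.31 and 0.24 without monocrotaline replicates 3 and 4 in turn, and 0.20 without saline replicate 4. Monocrotaline replicate 2 was the lowest and the other 3 the highest of the 8 arrays.

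Piezo1, the flow-sensing channel of endothelium, had 0.15, 0.40, 0.28 and -0.26 after monocrotaline, against 0.69, -0.17, 0.53 and 0.73 after saline. Saline replicates 1, 3 and 4 were the highest of the 8, and saline replicate 2 lay among the monocrotaline arrays. The log2 fold change was -0.30 ± 0.24 (SE; interval -0.84 to 0.24; limma adjusted p = 0.608), and the interval leaves out a 2-fold change either way. Without saline replicate 2 the value was -0.51, and without monocrotaline replicate 4 it was -0.17.

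Several probes served 29 of the 109 genes, and 13 of these had more than 1 probe tested. In 12 of the 13 the estimates had the same sign, and Kcna6 was the exception. Among 48 related genes (partner subunits of these channels, other ion channels, and ion transporters or their regulators), 41 had a probe, 32 were tested and 0 were called, with 21 positive and 11 negative estimates and a median log2 fold change of 0.12. The lowest adjusted p in that list, 0.163, was that of Clcn3, a chloride-proton exchanger of endosomes, at -1.34 ± 0.38.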

How the data were processed

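RNA of lung endothelial cells from 8 rats (4 monocrotaline, 4 saline, grouped by title and injection label) was read on 1-colour arrays. Per the file headers, Agilent Feature Extraction 10.7.3.1 gave a processed intensity, with background and spatial trend removed array by array, and the flag columns hold other values, 0 or 1 per spot. The authors deposited values on a log2 scale to which log2 had been applied again; that table equals quantile-normalized log2 signals after the second log2 is undone, and served only as an alternative. In the submitters' processing notes limma 3.6.9 appears, with no role stated.

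From the signals, spots of a probe were averaged, leaving out 4259 control spots and outlier-flagged spots (17 of 30367 probes dropped), and log2 values were scaled to each array's 75th percentile. Probes were kept when well above background on at least 4 of 8 arrays. Names came from a RefSeq table of GRCr8: 18006 probes matched 15159 symbols and 12361 matched none. Unmatched accessions stayed in the tests as genes of their own, and 11443 of the 19137 genes tested had a symbol. The probe with the highest mean signal stood for a gene. Groups were compared with limma 3.58.1 in R 4.3.3 (two-sided moderated test, Benjamini-Hochberg over 19137 genes, called at an adjusted p under 0.05). Promoter windows and 17 cell marker lists came from the same reference and from textbook knowledge; 14 lists had 0 called genes. The fit was tested on simulated data.

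The channel genes and all lists were chosen with earlier results of these data known. Named were the 5 channel genes with the lowest p in each direction, those detected on 3 or 4 arrays of one group and 0 or 1 of the other, and genes with known roles in vessels or blood cells; Kcnc4, Kcnj9, Kcnk1, Kcna3, Clcn3, Cacna1h and Abcc9 were added after their values were seen. Some genes that this rule picks are not reported here, while all counts include them; Kcnq5, Trpm7 and Piezo2 had no matched probe. Alternatives varied background correction, scaling, the filter, the probe choice, limma's options, array weights, a replicate block and the arrays left out; 1 more, dropping monocrotaline replicates 1 and 3 for their airway markers, was chosen after seeing the data.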

Additional observations from a re-analysis of the deposited data

Results flagged for a closer look

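Of 68 groups of 4 arrays, 5 held 1 value far from the other 3, by Dixon's test of its gap against the group's range, where chance gives about 1 in 20 groups. Kcna5 stood at -6.46 on monocrotaline replicate 4, with the other monocrotaline arrays between -4.53 and -4.19. Trpm2 stood at -1.10 on monocrotaline replicate 3, with the others between -2.41 and -2.19. Saline replicate 4 was apart for Kcnn3, at -1.79 with the others between -1.21 and -1.17, for Trpc1, at -3.01 with the others between -2.57 and -2.55, and for Kcnn1, at -7.73 with the others between -7.03 and -6.92. Kcnn1 was above background on 0 of 4 saline arrays. Without saline replicate 4 or monocrotaline replicate 4, 0 channel genes were called.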

How the results depend on the processing

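No channel gene was called in either direction under any of the 22 other settings, except Kcnh6, lower without monocrotaline replicate 2 (0 to 1 called lower over the arrays left out in turn). Over all genes, leaving out each array gave 11 to 273 called higher and 0 to 93 lower. Without monocrotaline replicates 1 and 3, 51 were called higher and 1 lower. The number lower was 21 after normexp correction with either scaling and 59 with array weights. The replicate block gave 0 higher and 0 lower. Same-numbered arrays did not deviate together (correlations of -0.01, -0.23, -0.33 and -0.20), and the numbers were not used as pairs. The labels do not say whether same-numbered rats were handled together. Same-numbered arrays shared a slide column, and these correlations cannot exclude a pairing. The median of the channel genes was -0.10 after normexp correction with 75th percentile scaling and -0.08 with no filter, which tests all 109. Of 32 named genes, 20 kept their sign throughout. Signs turned after normexp correction with 75th percentile scaling for Kcnip3 (-0.08), Trpc4 (-0.22), Trpv1 (-0.16), Kcna5 (-0.14), Kcna2 (-0.17), Kcnj2 (-0.17), Trpm2 (-0.01) and Trpv4 (-0.04). With quantile scaling after normexp they did so for Trpc4 (-0.01), Kcna5 (-0.04), Trpm2 (-0.03) and Trpv4 (-0.04). For Kcna5, Trpm2 and Trpv4 the values were -0.06, -0.03 and 0 with quantile normalization, -0.02, -0.03 and -0.04 with median scaling, -0.09, -0.05 and -0.02 in the deposited table, and -0.21, -0.17 and -0.04 with array weights, where Kcne3 was 0.01. Without monocrotaline replicates 1 and 3, Kcna5 was -0.45, Kcne3 0.45, Kcnma1 -0.18 and Trpm2 -0.31. Leaving out each array gave Kcna5 -0.27 to 0.56, Trpm2 -0.29 to 0.34, Trpv4 -0.17 to 0.11, Kcne3 -0.41 to 0.18, Kcna2 -0.08 to 0.31, Trpc4 -0.13 to 0.50, Trpv1 -0.06 to 0.41, Kcnip3 -0.10 to 1.06, Kcnc2 -0.61 to 0.04, Kcnma1 -0.02 to 0.28 and Trpc1 -0.01 to 0.25. The cause was not tested. For the 30 genes detected on 0 arrays and the 16 on 1 to 3, the signal gives only a bound. The slide row cannot be told apart from treatment.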

Other observations

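Among the related genes, Cacna1h, a T-type calcium channel, had -3.65, -2.31, -5.42 and -2.94 after monocrotaline, against -5.87, -6.24, -5.05 and -5.50 after saline. Monocrotaline replicate 3 lay within the saline range and the other 3 above it, and the log2 fold change was 2.09 ± 0.62 (limma adjusted p = 0.185). Its probe was above background on 4 monocrotaline and 2 saline arrays, so part of the saline values are only bounds. Clcn3 had 0.16, -0.62, -0.63 and -0.47 after monocrotaline, against 1.63, 0.11, 1.59 and 0.49 after saline, and monocrotaline replicate 1 was above 1 saline array. Both were picked out after their values were seen, as was Kcna3, the Kv1.3 channel of T cells, which had -3.62, -5.25, -3.43 and -3.32 after monocrotaline, against -3.24, -3.12, -3.18 and -4.21 after saline. Its log2 fold change was -0.47 ± 0.45 (limma adjusted p = 0.69), on arrays where all 19 T and NK cell markers had positive estimates. Monocyte and interstitial macrophage markers had 6 positive and 5 negative estimates (median 0.01). Their mean signal relative to saline was 0.31, -0.81, 0.15 and 0.78 on the monocrotaline arrays, against 0.03, 0.14, 0.31 and -0.48 on the saline arrays. It was lowest on monocrotaline replicate 2 and saline replicate 4, where Kcna3 was also lowest, a match seen after the values were known. The part of any of these cells in the Kcna3 signal was not tested.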
